A study of Mus musculus with 5 samples.

Results

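The region described here is an 80-kb stretch of mouse chromosome 7 downstream of the Cebpa promoter, chr7:35122001-35202000 in the GRCm38 (mm10) build. It runs from the 3′ side of Cebpa past the non-coding RNA gene Gm35665 to the transporter gene Slc7a10, and it holds 5 of the study's candidate enhancers of Cebpa, named En3 to En7. Its members are the 40 windows of 2 kb with a start between 35122001 and 35200001, chosen by position. Chromosome 7 has 12222 windows that at least 1 library lists, and the genome has 29870.

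The contacts of the Cebpa promoter were measured by 4C-seq, which fixes and cuts the chromatin, ligates the ends that lie close together, and sequences what became joined to 1 chosen place, the viewpoint. The mouse line 3T3-L1 was studied as preadipocytes (3T3-L1-PRE, 2 libraries) and as adipocytes (3T3-L1-AD, 2 libraries) on day 7 of differentiation. The labels give induction with 2 ug/mL of dexamethasone, 0.5 mM of IBMX and 10 ug/mL of insulin in a text that is the same for every sample, and set 3T3-L1-PRE apart only by the stage, preadipocytes. The comparison asks whether the promoter's contacts with the downstream enhancers differ between the states.

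Cebpa encodes C/EBPα, a transcription factor that acts with PPARγ to switch on and maintain the genes of the fat cell, and 3T3-L1 cells raise it as they differentiate. An enhancer can lie far from its promoter along the DNA and act on it when the chromatin folds so that they come close, which is the proximity that 4C-seq samples. Slc7a10 encodes Asc-1, a transporter of small neutral amino acids that is also known as a surface marker of white adipocytes, and Gm35665 encodes a long intergenic non-coding RNA.

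The primer from which the reads start lies at chr7:35117558-35117577 (plus strand), upstream of Cebpa, which starts at 35119293. It is shown with the DpnII site, where the chromatin was cut, in capitals, since all distances below are counted from that site.
Reading primer: atctggcccagagagcGATC
The windows begin 4.43 kb and end 84.4 kb downstream of it.

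The preadipocyte libraries, replicates 1 and 2, have 9453610 and 16888137 reads in the deposited windows. The adipocyte libraries, in the same order, have 6535263 and 10173531. Values below follow this order. Chromosome 7 held 7667263 and 13715191 of these reads in preadipocytes, and 4901863 and 7549822 in adipocytes. These chromosome 7 totals are the scale used throughout, and the normalised reads of a window are its reads per 1000000 chromosome 7 reads. The region itself held 1161135 and 2065713 reads in preadipocytes, and 841364 and 1260986 in adipocytes, so counting error is small beside the differences between replicates.

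The region took 15.1% of the chromosome 7 reads in 3T3-L1-PRE replicate 1 (95% Wilson interval 15.12 to 15.17%) and 15.1% in replicate 2 (15.04 to 15.08%). Its share of the first adipocyte library was 17.2% (17.13 to 17.20%) and of the second 16.7% (16.68 to 16.73%). Both adipocyte libraries were above both preadipocyte libraries, with means of 16.9% ± 0.327 and 15.1% ± 0.0584 (SD, n = 2 each), a ratio of 1.12. The difference was 0.16 on the log2 scale, beside a pooled SD between replicates of 0.0201. An exact two-sided permutation test of 2 against 2 libraries cannot give a p below 0.333, and that is the value here.

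The 40 windows at the same number of steps from the viewpoint's window on its other side, chr7:35032001-35112000, gained more. Because the site is not in the middle of its window, they lie 5.57 to 85.6 kb from it, slightly farther than the region. Their share of the chromosome 7 reads was 23.2% and 22.7% in preadipocytes, and 34.5% and 38.3% in adipocytes. The groups did not overlap there either, and the ratio of the means was 1.59. Within a library, the downstream region held 0.653 and 0.664 times the reads of its upstream mirror in preadipocytes, and 0.498 and 0.436 times in adipocytes. On the log2 scale these ratios were -0.61, -0.59, -1.01 and -1.20. The promoter's contacts were thus more unequal between the sides in adipocytes, by -0.50 on the log2 scale against a pooled SD of 0.0968. This ratio of reads needs no scaling between libraries, and it was lower in both adipocyte libraries (exact permutation p = 0.333, the smallest possible). With the authors' RPMs in place of reads the difference was -0.24. The mirror is not an empty reference, since it holds the gene Cebpg and the 3′ end of the gene Pepd. By the distances the paper gives, it also holds the candidate enhancers En1 and En2, whose contacts the paper reports as stronger after differentiation.

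The direction of the region's own change depends on the scale. Windows within 200 kb of the viewpoint took 53.4% and 51.7% of the chromosome 7 reads in preadipocytes, and 68.4% and 70.2% in adipocytes. Of the reads within 200 kb, the downstream region took 28.4% and 29.1% in preadipocytes, and 25.1% and 23.8% in adipocytes. The region therefore rose relative to the chromosome and fell relative to the neighbourhood of the viewpoint, with no overlap of the groups in either case. Scaled to all listed reads, its share was 12.3% and 12.2% in preadipocytes, and 12.9% and 12.4% in adipocytes, and the log2 difference shrank to 0.04.

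The region was divided at its named genes into 4 segments. The 6 windows before Gm35665 (chr7:35122001-35134000) held 29.0% and 29.3% of the region's reads in preadipocytes, and 25.7% and 27.3% in adipocytes. The 4 windows over Gm35665 held 15.3% and 15.3% in preadipocytes, and 17.8% and 15.7% in adipocytes. The 22 windows between the genes held 48.6% and 49.1% in preadipocytes, and 51.9% and 49.8% in adipocytes. As shares of the region's reads, the promoter-proximal end was thus lower in both adipocyte libraries, and Gm35665 and the stretch behind it higher in both. Of the chromosome 7 reads, the proximal end took 4.39% and 4.42% in preadipocytes, and 4.41% and 4.55% in adipocytes, so there it did not fall. The 8 windows over Slc7a10 held 7.12% and 6.28% in preadipocytes, and 4.60% and 7.31% in adipocytes, and there the groups overlapped.

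The mean differences between the states were -2.66 percentage points before Gm35665 (pooled SD 0.801), 1.39 over Gm35665 (1.06) and 2.02 between the genes (1.10). The difference over Slc7a10 was -0.748 points against a pooled SD of 1.42. Without 3T3-L1-AD replicate 1 it turned to 0.607, the value over Gm35665 shrank to 0.327 and that between the genes to 0.942. Without 3T3-L1-AD replicate 2 the same differences were -2.10, 2.44 and 3.10. The size of these inner shifts thus differed widely between the adipocyte libraries, and over Slc7a10 so did the direction.

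Measured against their own mirrors upstream, the segments were not alike. Before Gm35665, the log2 ratio of reads to the mirror was -0.65 and -0.49 in preadipocytes, and -1.40 and -1.36 in adipocytes. Over Slc7a10 it was -1.92 and -1.97 in preadipocytes, and -2.77 and -2.58 in adipocytes. Between the genes it was -0.45 and -0.54, then -0.70 and -0.996. These 3 segments fell behind their mirrors in both adipocyte libraries. Over Gm35665 the ratio was 0.07 and 0.20 in preadipocytes, and 0.08 and -0.05 in adipocytes, so the groups overlapped. The mirror of Gm35665 itself took less of the upstream reads in adipocytes, 8.40% and 7.07% against 9.56% and 8.89%. In the mirror of the stretch before Gm35665, the windows at 35110001 and 35108001 rose 2.22- and 1.99-fold in mean normalised reads. The mirror of Slc7a10 is the far end of the upstream windows, where En1 and En2 lie.

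Reads fell with distance along the region. The slope of log2 reads on log2 distance was -0.724 and -0.616 in preadipocytes, and -0.734 and -1.26 in adipocytes. The adipocyte slopes were both steeper, one of them by little, and the mean difference of -0.327 was close to the pooled SD of 0.268. Without 3T3-L1-AD replicate 2 the difference was -0.0645, without replicate 1 it was -0.589, and with windows within 10 kb of the viewpoint left out it was -0.531. Over windows with at least 100 reads in every library, an alternative chosen after seeing the data, the slopes were -0.615, -0.637, -0.672 and -0.609, and the groups overlapped. Besides the window at 35142001, this minimum drops windows that were nearly empty in 1 adipocyte library only, so it describes the remaining windows and does not test the slope.

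At the gene for the non-coding RNA, Gm35665 (chr7:35135046-35141449, minus strand), normalised reads were 23193 and 23083 in preadipocytes, and 30489 and 26135 in adipocytes. Both adipocyte libraries were higher, by 1.22-fold in the mean, and the preadipocyte libraries lay close together (SD 77.8, against 3079 in adipocytes, n = 2 each). At the transporter gene Slc7a10 (chr7:35186385-35201114, plus strand) they were 10784 and 9462 in preadipocytes, and 7894 and 12207 in adipocytes. The adipocyte libraries lay on either side of the preadipocyte pair, and the ratio of the means was 0.993. On the chromosome 7 scale, contacts of the Cebpa promoter with Slc7a10 thus showed no shift in a common direction. Without 3T3-L1-AD replicate 1 the log2 difference turned from -0.04 to 0.27. Against its upstream mirror, as given above, Slc7a10 was lower in both adipocyte libraries. Scaled to reads within 200 kb, the log2 difference changed from 0.29 to -0.11 at Gm35665 and from -0.04 to -0.44 at Slc7a10.

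The windows at the gene starts differed between replicates of a state. The start of Gm35665 lies in the window at 35140001, which is described below with En5. The window that holds the start of Slc7a10, at 35186001, had 31594 and 24202 reads in preadipocytes, and 5186 and 30646 in adipocytes. In normalised reads these are 4121, 1765, 1058 and 4059, and the spread within each state was wider than the difference between the states. RefSeq also places the non-coding RNA genes Gm35724, Gm51475, Gm35889 and Gm38988 in the region, and the 3′ end of Lrp3, a receptor of the LDL receptor family, overlaps the last window.

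The candidate enhancers were placed by the primers with which the study amplified them, and each was read in the window that holds the largest part of it. En3 (chr7:35122555-35123790) lies between genes, 5.60 kb from the viewpoint. En4 (chr7:35138246-35139051) lies in an intron of Gm35665, and En5 (chr7:35141302-35142091) overlaps its first exon and promoter. En6 (chr7:35169007-35169872) and En7 (chr7:35172073-35173123) lie in an intron and over an exon of Gm38988, 51.9 and 55.0 kb from the viewpoint.

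En3, the enhancer nearest to the promoter, had the most reads of the 5. Its window held 16026 and 11890 normalised reads in preadipocytes, and 13588 and 13921 in adipocytes. The adipocyte values lay inside the preadipocyte range, and the edgeR log2 fold change was -0.02 (SE 0.21, FDR 0.947). Divided by the mean of the 2 windows on each side, its reads were 1.48 and 1.31 in preadipocytes, and 0.897 and 1.12 in adipocytes. The pair on the near side lies outside the region, next to the viewpoint. Over the pair inside the region, a setting chosen after seeing the data, the ratios were 2.10 and 1.37 in preadipocytes, and 1.89 and 1.43 in adipocytes. En3 thus stood above the mean of its downstream pair in all 4 libraries, with overlap of the groups. One of that pair, the window at 35126001, held more reads than En3 in replicate 2 of each state. The lower adipocyte ratios came with the windows beside the viewpoint. Scaled to reads within 200 kb, its log2 fold change was -0.42, with the authors' RPMs -1.20 and with TMM normalization 0.50, so that its sign is set by the scale.

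En4, in the intron of Gm35665, was higher in adipocytes. Its window held 4600 and 4766 normalised reads in preadipocytes, and 7706 and 6211 in adipocytes, a ratio of means of 1.49. Over its neighbours it stood at 0.990 and 1.04 in preadipocytes, and 1.35 and 1.25 in adipocytes. One of these neighbours, the window at 35142001, is nearly empty in every library. Without it, also a setting chosen after seeing the data, the ratios were 0.742 and 0.781 in preadipocytes, and 1.01 and 0.935 in adipocytes. Relative to its neighbours En4 was higher in both adipocyte libraries either way, a contrast that needs no scaling between libraries. It stood above their mean either way in 3T3-L1-AD replicate 1, and below it either way in 3T3-L1-PRE replicate 1. In replicate 2 of each state, whether it stood above depended on that window. The edgeR log2 fold change of 0.57 (SE 0.43, FDR 0.255) was not called at an FDR of at most 0.01. Of 13 fits that keep all libraries, 1 called En4, DESeq2 with its own size factors (log2 fold change 1.01, adjusted p 0.0019), and the adjusted p over the 13 ranged up to 0.773.

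En5, at the start of Gm35665, held 5644 and 5213 normalised reads in preadipocytes, and 8023 and 4637 in adipocytes. The adipocyte libraries lay above and below the preadipocyte pair, and the log2 fold change was 0.22 (SE 0.43, FDR 0.704), or -0.23 without 3T3-L1-AD replicate 1. Its reads were 1.72, 1.86, 2.55 and 1.17 times the mean of its neighbours, which include the nearly empty window at 35142001, and 1.29, 1.40, 1.91 and 0.876 times without that window. En5 thus stood above the mean of its neighbours in 3 libraries under both settings, and in 3T3-L1-AD replicate 2 under 1 of them.

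En6 and En7 are the distal pair. En6 held 1149 and 1451 normalised reads in preadipocytes, and 2068 and 1614 in adipocytes, a ratio of means of 1.42. It lay in a local low in all 4 libraries, with 0.295, 0.338, 0.347 and 0.343 times the mean of its neighbours. En7 held 5663 and 4465 in preadipocytes, and 7475 and 6359 in adipocytes, a ratio of 1.37. Over its neighbours En7 stood at 1.87 and 1.18 in preadipocytes, and 1.26 and 1.48 in adipocytes. En6 and En7 were both higher in both adipocyte libraries in reads, but the height of En7 above its surroundings did not separate the states. Their log2 fold changes were 0.50 (SE 1.16, FDR 0.755) and 0.45 (SE 0.42, FDR 0.379), and neither was called.

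Set against the window at the same step upstream, En3 held 0.957 and 0.681 times its reads in preadipocytes, and 0.374 and 0.350 times in adipocytes. En6 held 0.235 and 0.309 times in preadipocytes, and 0.220 and 0.195 times in adipocytes. By this ratio, which needs no scaling either, En3 and En6 were lower in both adipocyte libraries. En4, at 0.735, 0.797, 0.792 and 0.731, overlapped between the states, as did En5 and En7. The window opposite En3, at 35110001, rose from 16754 and 17457 normalised reads in preadipocytes to 36323 and 39762 in adipocytes. En3's own adipocyte reads lay inside the preadipocyte range, and those of En6 were higher, so neither ratio fell through fewer normalised reads at the enhancer.

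In the order of their levels, En3 stood above the other 4 enhancers in every library and En6 below them. En4, En5 and En7 lay between and did not keep an order: among these, En7 led in the first preadipocyte and the second adipocyte library, and En5 in the others. Scaled to reads within 200 kb of the viewpoint, the log2 fold changes of En4, En6 and En7 shrank to 0.17, 0.10 and 0.06, and that of En5 turned to -0.17. With the authors' RPMs as deposited, not divided by a chromosome 7 total, En4, En5, En6 and En7 were lower in adipocytes, at -0.53, -0.79, -0.27 and -0.63. Scaled to all listed reads they were 0.45, 0.10, 0.38 and 0.33, and with TMM normalization 1.01, 0.60, 0.91 and 0.93. En4, En6 and En7 were thus higher in adipocytes under each of these scalings of the reads and lower in the RPMs, and En5 changed sign with the scale.

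The study designed guide RNAs against En3 and En7, and these guides show where in the windows the elements lie. The PAM, the bases next to the target that Cas9 needs, is in capitals. The first pair targets the minus strand at chr7:35122583-35122604 and chr7:35122918-35122939, and the second the plus strand at chr7:35172502-35172524 and chr7:35172991-35173012.
En3-sgRNA1: gcctgttactacagccaacTGG
En3-sgRNA2: agcctctaggcaggcgatgGGG
En7-sgRNA1: gtcccatatcctcccaaccgGGG
En7-sgRNA2: gcatgctgcagccgaggtgAGG
Each target occurs 1 time on chromosome 7, inside the amplicon of its enhancer, so the windows at 35122001 and 35172001 hold the targeted sequence itself.

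The windows with the most reads were the same pair in all 4 libraries. The window of En3 at 35122001 held 122873 and 163080 reads in preadipocytes, and 66607 and 105098 in adipocytes. The window at 35126001, which lies between genes and holds none of the enhancers, held 87256 and 193212 reads in preadipocytes, and 63158 and 125588 in adipocytes. En3 led in replicate 1 of each state, and the window at 35126001 led in replicate 2 of each. Together they took 18.1% and 17.3% of the region's reads in preadipocytes, and 15.4% and 18.3% in adipocytes, so this share overlapped between the states. The median window held 3817, 3821, 3059 and 3784 normalised reads in the same order of libraries.

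Of the 1998 windows tested across the genome with edgeR's quasi-likelihood test, 441 (22.1%) were called at an FDR of at most 0.01. Of the region's 40 windows, 39 were tested and 0 were called, and 1 had an unadjusted p of at most 0.05. Of the 441 called windows, 433 were windows that some library does not list, a kind that the region has only 1 of. Among tested windows listed in all 4 libraries, 8 of 403 were called (1.99%), and the region's count of 0 lies near that share. The median log2 fold change was 0.18 in the region, with 23 windows positive and 16 negative, beside -0.07 over the 403 windows and -8.72 over all 1998. TMM normalization moved the median over all tested windows to -8.24 and that of the region to 0.58.

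The smallest FDR among windows that were higher in adipocytes belonged to the window at 35180001, over an exon of Gm38988. It held 1838 and 1678 normalised reads in preadipocytes, and 5421 and 3844 in adipocytes. Both adipocyte libraries were well above both preadipocyte libraries, and the log2 fold change was 1.40 (SE 0.71, FDR 0.0725). The next was the window at 35176001, with 3639 and 5894 in preadipocytes, and 10558 and 5754 in adipocytes. There 3T3-L1-AD replicate 2 fell just below 3T3-L1-PRE replicate 2, and the log2 fold change was 0.77 (FDR 0.079).

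Among windows that were lower, the smallest FDR belonged to the window at 35144001, with 4540 and 2288 normalised reads in preadipocytes, and 2004 and 1679 in adipocytes. The groups did not overlap, and the log2 fold change was -0.89 (FDR 0.357). The window at 35178001 followed, with 5744 and 2954 in preadipocytes, 4137 and 1381 in adipocytes, and a log2 fold change of -0.66 (FDR 0.399). Here the replicates of each state differed more than the states did. The windows at 35176001, 35178001 and 35180001 are next to each other, and their fold changes had different signs, with none of the 3 called.

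The most extreme log2 fold changes came from windows in which 1 adipocyte library stood apart. The window at 35154001 had the highest, 1.46, from 2663 and 2802 reads in preadipocytes, and 5925 and 2345 in adipocytes. The window at 35184001 had the lowest, -1.21, from 16865 and 18789 reads in preadipocytes, and 197 and 11378 in adipocytes. In each of these, 3T3-L1-AD replicate 1 made the difference, while in normalised reads 3T3-L1-AD replicate 2 lay within the preadipocyte range.

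Other tests called more. DESeq2 called 2 of the 39 windows with size factors from chromosome 7 reads, at 35170001 and 35180001, where it called 69.1% of all tested windows. With its own size factors it called 6, at 35132001, 35138001 (En4), 35150001, 35170001, 35176001 and 35180001, where it called 69.0% of all. These calls were all of higher reads in adipocytes. Among the 403 windows listed in all 4 libraries, DESeq2 called 46 (11.4%) with chromosome 7 size factors and 52 (12.9%) with its own, beside 5.13% and 15.4% of the region's tested windows, so the region lay on either side of that share. With edgeR, 6 windows were called without 3T3-L1-AD replicate 1 (21.3% of all tested windows) and 6 without 3T3-L1-AD replicate 2 (6.66% of all). Only 1 window, at 35158001, was called in both cases, with log2 fold changes of 1.12 and -2.29, that is, in opposite directions. Counts of calls without a preadipocyte library are left out, because the share called over all tested windows is not available for them.

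In normalised reads, both adipocyte values lay above both preadipocyte values in 8 of the 40 windows, beside 14.6% of the 398 chromosome 7 windows listed in all 4 libraries. Both lay below in 4 of the 40, beside 23.4%. In the upstream mirror, 20 of 40 windows were higher and 2 lower. The region's share of higher windows thus lay near that of the chromosome and under that of its mirror. Of the 8 higher windows, 7 lie between the genes and 1, that of En4, over Gm35665. Of the 4 lower windows, 2 lie before Gm35665, 1 between the genes and 1 over Slc7a10. Scaled to reads within 200 kb of the viewpoint, the counts became 1 higher and 11 lower, beside 7.29% and 35.4% of the 398 windows. With the authors' RPMs, taken as deposited, they were 0 higher and 28 lower, beside 2.26% and 47.0%. The shift towards lower windows under these scales is thus seen along the chromosome as well.

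Replicates of the adipocyte state differed more than those of the preadipocyte state. Over the 39 windows listed in all 4 libraries, the larger replicate exceeded the smaller by a median of 1.63-fold in adipocytes and 1.26-fold in preadipocytes. The excess was over 2-fold in 15 windows of adipocytes and in 2 of preadipocytes, and over 10-fold in 6 and 0. The upstream mirror had medians of 1.55 and 1.18, and 0 windows over 10-fold in either state. Over the 398 chromosome 7 windows listed in all 4 libraries the medians were 4.09 and 1.48, and 152 and 13 windows were over 10-fold. The wider spread in adipocytes is thus a trait of these libraries along the chromosome, and it was smaller in the region.

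The 6 windows are named here after their values were seen. 3T3-L1-AD replicate 1 was the lower library at 35158001, with 4964 reads against 81105, at 35184001, with 197 against 11378, and at 35196001, with 90 against 13988. 3T3-L1-AD replicate 2 was the lower at 35156001, with 517 reads against 10989, at 35192001, with 3 against 8134, and at 35198001, with 3 against 3013. Neither library was the poorer throughout, and 3 of the 6 windows lie in Slc7a10. Preadipocyte libraries had at least 3435 reads in each of these windows.

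The order of the region's windows was compared between libraries by Spearman's rho over 39 windows, which share the fragments and the distance from the viewpoint. It was 0.799 between the preadipocyte libraries and 0.650 between the adipocyte libraries. Between states it was 0.687 and 0.717 for 3T3-L1-PRE replicate 1 with 3T3-L1-AD replicates 1 and 2, and 0.773 and 0.846 for 3T3-L1-PRE replicate 2. Each adipocyte library was thus more like both preadipocyte libraries than like the other adipocyte library.

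The authors also deposited a q-value per window for each library alone, from a test of its reads against the decay with distance. At a q-value of at most 0.05, 4 of the region's windows were significant in 3T3-L1-PRE replicate 1 (background 0.502% of listed chromosome 7 windows) and 21 in replicate 2 (0.591%). In adipocytes, 1 was significant in replicate 1 (0.671%) and 3 in replicate 2 (0.879%). The mirrored windows upstream had 10, 29, 4 and 13. The region's count was thus above its background share in every library, though in 3T3-L1-AD replicate 1 it rests on 1 window. The window of En3 was the only 1 in all 4 libraries, and that at 35126001 was significant in 3. Of the 18 windows significant in 1 library, 17 were so in 3T3-L1-PRE replicate 2, the library with the most reads, and the part of depth in that was not tested. En4, En5 and En7 are among these 17, and En6 was significant in no library.

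4C-seq can see a place only where the first enzyme cuts, and the region's windows hold 1 to 10 GATC sites, the target of DpnII, with a median of 5. Across the 40 windows, Spearman's rho of reads with the number of sites was 0.386 and 0.484 in preadipocytes, and 0.312 and 0.519 in adipocytes, as a description of windows that share a library. Reads thus tended to be higher where there were more sites, in every library. The windows with 1 site are those at 35142001, 35154001, 35156001 and 35192001, while 3.79% of chromosome 7 windows have 1. Their median was 3276 and 6620 reads in preadipocytes, and 7030 and 260 in adipocytes. The other 36 windows had medians of 30100, 55964, 17594 and 29835, so windows with a single site were poorer at the median in every library, though the ranges overlapped: the poorest windows with more sites held 3919, 3435, 90 and 3 reads.

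The window at 35142001, which holds the end of the En5 amplicon, is the emptiest. It was not listed in 3T3-L1-PRE replicate 1, where an unlisted window can hold up to 12 reads, nor in 3T3-L1-AD replicate 2, where it can hold up to 1. The other libraries held 17 reads (preadipocytes) and 3 reads (adipocytes) there. The states cannot be compared at such counts.

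The window at 35192001, in an intron of Slc7a10, also has a single DpnII site. The sequence around it, chr7:35193490-35193589 (plus strand), is shown with the site in capitals, and the site occurs 1 time on chromosome 7 with the 30 bases to its left, and 1 time with those to its right. The reads of this window were 3888 and 10438 in preadipocytes, and 8134 and 3 in adipocytes.
Window 35192001: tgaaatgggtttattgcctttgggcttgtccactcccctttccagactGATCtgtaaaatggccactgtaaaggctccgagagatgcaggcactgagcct
These counts are below the region's median in every library, and 1 of the 4 libraries was nearly empty.

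The promoter of Gm35665 lies inside the En5 amplicon, so that the candidate enhancer and the start of the non-coding RNA cannot be told apart in these data. It is shown as RefSeq places it, chr7:35141515-35141764 (minus strand, GRCm38.p6), with its only DpnII site in capitals.
Gm35665 promoter: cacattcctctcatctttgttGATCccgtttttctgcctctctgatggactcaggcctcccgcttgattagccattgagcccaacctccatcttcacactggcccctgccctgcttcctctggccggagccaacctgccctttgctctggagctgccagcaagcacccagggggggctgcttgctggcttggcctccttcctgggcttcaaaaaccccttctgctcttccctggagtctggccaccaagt
It holds 1 GATC and 0 CATG, the target of the second enzyme, NlaIII.

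The enhancers were searched on both strands for TTGCNNAA, a form of the sequence that C/EBP factors bind. It occurs in 16 of the 40 windows, beside 59.9% of the chromosome 7 windows, and in the amplicons of En3 and En4 among the 5. The stretches around these matches are shown because C/EBPα is the product of the gene at the viewpoint. They are chr7:35122717-35122756 and chr7:35138906-35138945 (plus strand), with the match in capitals, and both matches are read on the minus strand.
En3: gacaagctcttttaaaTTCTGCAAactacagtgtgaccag
En4: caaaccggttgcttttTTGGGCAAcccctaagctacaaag
A pair of AGGNCA 1 base apart, the form that PPARγ with its partner RXR binds, occurs in 3 of the 40 windows (7.50%), beside 3.08% of chromosome 7 windows. The En6 window holds 1 of these, outside the amplicon. The matches describe letters only, and binding was not measured.

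With 2 libraries a state, the differences given here compare these libraries. Nothing in the labels says whether replicates come from separate cultures, so p-values reflect the spread between these libraries only.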

How the data were processed

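The authors trimmed and mapped the reads to mm10 and deposited, for each library, the read count of each listed 2000-bp window, made with r3Cseq. They also deposited a normalized signal named RPMs, and for each window a p-value and a q-value from the authors' test within that library. The members and lists were chosen with earlier results of these data known. Libraries were grouped by the state in their titles. Unlisted windows counted as 0 reads, and reads were scaled to chromosome 7 reads. The windows tested were those listed in both replicates of either state. edgeR's quasi-likelihood test ran over all of them with chromosome 7 reads as library sizes, Benjamini-Hochberg adjustment and a threshold of 0.01 on the FDR. This test gives no SE. The SE printed is the size of the log2 fold change divided by the square root of the test's F statistic. Single values were compared by exact two-sided permutation over libraries. The 95% Wilson intervals account for counting error alone, because PCR copies cannot be told from independent ligation products.

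Windows named are those of the enhancers and gene starts, the 2 with the most reads in each library, unlisted windows, and the 2 with the smallest edgeR p and the most extreme log2 fold change in each direction. Others were named after their values were seen. Genes are from GENCODE vM21 and RefSeq on the same build. Alternatives were other scalings and normalizations, other filters, DESeq2, RPMs, a replicate block and each library left out. 4C-seq of other samples was not analysed here. Tests ran in R 4.3.3 (edgeR 4.0.16, DESeq2 1.42.0), and all other steps in Python 3.11.15 (scipy 1.17.1, pandas 2.3.3, numpy 2.4.6).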

Additional observations from a re-analysis of the deposited data

How the results depend on the processing

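Values are differences of 3T3-L1-AD from 3T3-L1-PRE, log2 unless another unit is named. Of 170 values under alternatives, 131 kept their direction and stayed within the spread between replicates or on the same side of the FDR threshold, or, for a count, within 1.5 times; 21 moved further and 18 changed sign. The causes of these changes were not tested. Some of the values that held could not have changed. For the share and the mirror ratio, the replicate block equals the main value by construction. For segment shares and slope, counting adjacent windows with identical reads once changed nothing, because the region has none.

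Scaling moved the region's share of chromosome 7 reads, 0.16, to 0.043 with all listed reads, 0.19 without the top window, 0.25 with reads more than 10 kb away, 0.26 as a share of chromosome 7 RPMs and -0.23 with reads within 200 kb. At Gm35665, 0.29 became 0.17 with all listed reads and -0.11 within 200 kb. At Slc7a10, -0.04 became 0.047 with reads more than 10 kb away, -0.44 within 200 kb and 0.34 as a share of chromosome 7 RPMs. The ratio to the mirror, -0.50, became -0.37 without the windows within 10 kb and -0.24 with RPMs. With RPMs the share before Gm35665 differed by -3.91 percentage points and that over Gm35665 by 0.497, against 1.385 with reads. The shares between the genes and over Slc7a10 differed by 2.915 and 0.499. The slope difference became -0.531 without the windows within 10 kb and -0.0848 with RPMs. Over windows with at least 100 reads, chosen after seeing the data, it became -0.0142.

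En3, -0.02, became 0.0070 without the top window, 0.065 with reads more than 10 kb away and 0.50 with TMM normalization. En5 turned to -0.17 within 200 kb. With RPMs as deposited, which are not scaled to chromosome 7, En3 became -1.20, and En4, En5, En6 and En7 became -0.53, -0.79, -0.27 and -0.63. The FDR ranged from 0.0726 to 0.989 at En3 and from 0.0019 to 0.773 at En4 over the 13 fits that keep all libraries, of which DESeq2 with its own size factors called En4. Windows that did not overlap changed from 8 higher and 4 lower to 1 and 11 within 200 kb, and to 0 and 28 with RPMs as deposited, and the shares over chromosome 7 moved the same way, from 14.6% and 23.4% to 7.29% and 35.4%, and to 2.26% and 47.0%. With neighbours inside the region that every library lists, chosen after seeing the data, the difference in reads over neighbours moved from -0.385 to -0.0733 at En3 and from 0.285 to 0.214 at En4. The count of called windows, 0 with edgeR, was 6 and 2 with DESeq2 (own and chromosome 7 size factors), and 0 with the other edgeR settings that keep all libraries.

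Each library was also left out in turn, with a lone library assumed to vary like the other state. The difference over Slc7a10 ranged from -2.10 to 0.607 points of the region's reads and from -0.36 to 0.27 on the log2 scale. The slope difference ranged from -0.589 to -0.0645. En3 ranged from -0.22 to 0.21 and En5 from -0.23 to 0.56. The share of chromosome 7 reads ranged from 0.15 to 0.18 and the ratio to the mirror from -0.59 to -0.40.

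The replicate block gave 0 called windows in the region, and its 0.16 for the region's share equals the main value by construction. It called 7 of 1998 windows against 441. Deviations of same-numbered libraries correlated at -0.0695 over 398 windows. With 2 libraries a state, this cannot decide whether the numbers pair the libraries.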
